A study of Mus musculus with 10 samples.

Results

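Elastic fibres give skin, vessels, ligaments and joint capsules their recoil. A core of crosslinked elastin forms on a scaffold of fibrillin microfibrils, fibulins and microfibril-associated proteins link the core to the scaffold and to crosslinking enzymes, and latent TGF-beta binding proteins (LTBPs) sit on the same microfibrils, where several of them store TGF-beta in its latent form. In the joint these proteins are made mainly by fibroblasts, smooth muscle cells and other mesenchymal cells of the capsule, vessels and ligaments.

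The 10 genes considered were Eln, Fbn1, Fbn2, Fbln1, Fbln2, Fbln5, Mfap4, Mfap5, Ltbp1 and Ltbp2. The list was chosen by function, with earlier results of these data known. For each gene the Affymetrix probe set was taken that names it alone in the platform annotation and has the highest mean over 10 arrays. A value was obtained for 9 of the 10 genes, out of 18128 genes in the table, and Fbn1, fibrillin-1, was not analysed here. In all, 18 of the 39993 probe sets named a member alone.

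All 10 arrays carried RNA of synovium, taken from left hind legs that had been cleaned of muscle and skin. The donors were male DBA/1J animals in which collagen antibody-induced arthritis (CAIA) had been set off, a model where an antibody against type II collagen and then bacterial lipopolysaccharide inflame the joints. Antibody (1 mg) was injected into all of them on day 8, lipopolysaccharide (25 µg) followed on day 11, and the experiment ended on day 12. The vehicle group (n = 5) was given corn oil by mouth, and the maslinic acid group (n = 5) received this olive triterpene in corn oil, 200 mg/kg each day. Age at purchase was 5 weeks and the labels give 8 weeks. The animals were selected from larger groups by a criterion that the labels do not state; untreated mice were not analysed here.

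Each probe set has a deposited score. Its level resembles a log2 intensity, with a median of 6.74 over probe sets, but the arrays differ so little (median SD over arrays 6.68 millionths of a unit) that differences between arrays cannot be read as log2 fold changes, and their scale is unknown. Levels of different probe sets are not comparable with each other. Values per array are therefore given as the deviation from the gene's mean over 10 arrays, in millionths of a deposited unit. The effect of treatment is given as Hedges' g, the maslinic acid mean less the vehicle mean, divided by the pooled SD of the groups, with its 95% confidence interval. The labels name 5 biological replicates per group, and precision is limited by how many arrays there are, since arrays have no depth.

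No detection call was at hand, so the presence of a cell type cannot be read from these levels, which are given as a description. All 8 fibroblast markers, 4 of 5 markers of the synovial lining and all 8 skeletal muscle markers had levels above the table's median, as did all 7 cartilage and all 5 measured bone markers, whereas 2 of 6 epidermal markers did. In such bulk tissue, fewer cells of a type and less RNA per cell cannot be told apart. In limma's array quality weights vehicle replicates 3 and 5 stood lowest, at 0.458 and 0.339 against 0.857 to 2.01 for the other arrays.

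In these mice the elastic fibre genes did not separate the treatment groups. All 9 measured genes had a higher mean with maslinic acid, with g between 0.32 and 1.09, but with arrays centred on their medians Eln, Mfap4 and Ltbp2 lay lower, and after quantile normalization Ltbp1 lay lower and Mfap4 was at 0. None of the 9 passed limma's test after Benjamini-Hochberg adjustment over all probe sets (adjusted p 0.587 to 0.872), where 0% of probe sets passed. At an unadjusted p under 0.05 there were 0 of 9, against 8.83% of all genes (4.29% higher and 4.54% lower with maslinic acid) and 9.04% of all probe sets, and the lowest adjusted p over all probe sets was 0.148. The exact Wilcoxon test gave 2741 probe sets at an unadjusted p under 0.05 and 0 after adjustment, but with 5 against 5 arrays its p cannot go below 0.00794, so that 0 carries little information. The groups overlapped in each of the 9, against 1.38% of all genes whose groups did not overlap, and each of the 9 intervals for g held 0. A higher mean with maslinic acid was found for 47.9% of all genes. The median g was 0.71 over the 9 genes and 0.0 over all genes.

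The promoters of Fbln1 and Fbln5 are shown because these fibulins varied together across mice, as described below. Fbln2, the closest partner of Fbln1, has no window here that ends at its outermost start, and none is printed. Each is the 250 bases before the outermost start of the gene, from RefSeq on GRCm38.p6. Fbln1 lies on the plus strand, with the window at chr15:85205699-85205948, and Fbln5 on the minus strand, with the window at chr12:101819120-101819369. On both strands 5 motifs were searched: the AP-1 motif TGANTCA, the GC box GGGCGG, the TATA box TATAAA, the short SMAD element GTCTG and the CAGA repeat CAGACA, of which the last pair can overlap. Capitals mark matches to the first 3.
Fbln1: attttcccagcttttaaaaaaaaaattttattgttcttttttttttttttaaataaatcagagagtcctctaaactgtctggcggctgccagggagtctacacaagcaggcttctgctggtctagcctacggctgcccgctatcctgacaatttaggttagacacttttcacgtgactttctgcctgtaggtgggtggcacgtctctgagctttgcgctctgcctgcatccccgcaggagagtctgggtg
Fbln5: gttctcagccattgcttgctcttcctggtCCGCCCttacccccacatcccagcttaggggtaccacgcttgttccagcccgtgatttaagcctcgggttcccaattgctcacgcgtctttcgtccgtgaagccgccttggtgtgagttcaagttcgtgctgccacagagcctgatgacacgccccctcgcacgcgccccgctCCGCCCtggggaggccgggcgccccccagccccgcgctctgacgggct
The Fbln5 window held 2 GC boxes, which begin 221 and 48 bases before the start, and no match to the other 4 motifs. The Fbln1 window held 2 SMAD elements, beginning 174 and 9 bases before the start, and 1 CAGA repeat, beginning 175 bases before it and overlapping the first of them. It held no AP-1, GC box or TATA match. Among 32851 windows of this length in the RefSeq table, 42.2% held the SMAD element, 32.7% a GC box, 17.1% the CAGA repeat, 12.4% the TATA box and 6.75% the AP-1 motif. The share of G and C was 65.2% in the Fbln5 window and 46.4% in the Fbln1 window, against a median of 52.4%. A later start of Fbln5 has a window, not printed, with 2 SMAD elements, 1 CAGA repeat, no GC box and 49.6% G and C. A later start of Fbln1 has one with 1 GC box, 2 SMAD elements, 1 CAGA repeat and 62.4% G and C. The contrast between the printed windows therefore holds for the outermost starts only. These matches are descriptions of the letters only.

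For elastin, the elastic core itself, the groups overlapped, and the interval for g was wide. Eln (probe set 1420855_at, level 6.59) deviated by 29, -19, 17, -61 and -41 millionths in vehicle replicates 1 to 5, and by 21, -29, 111, -17 and -14 millionths in maslinic acid replicates 1 to 5. Maslinic acid replicate 3 was the highest array, and the other 4 maslinic acid arrays lay within the range of the vehicle group. The group means were -14.7 ± 38.0 and 14.7 ± 57.1 millionths (SD, n = 5 each), giving g = 0.55 (95% CI -0.62 to 1.68; limma adjusted p = 0.773; exact permutation p = 0.397, two-sided). Without maslinic acid replicate 3, g was 0.15, and without vehicle replicate 4 it was 0.33. A second Eln probe set held only 5 distinct values over 10 arrays, and its group means were equal.

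Among the microfibril genes, Fbn2, which encodes fibrillin-2, the fibrillin most prominent in developing tissue, had the smallest g. Its deviations (1454830_at, level 6.49) were -109, -33, 177, -91 and -32 millionths in vehicle replicates 1 to 5 and -14, -82, 149, 1 and 38 millionths in maslinic acid replicates 1 to 5. Vehicle replicate 3 was the highest array for Fbn2, although it was among the lowest for Fbln1, Mfap5 and Ltbp2. Maslinic acid minus vehicle was g = 0.32 (95% CI -0.82 to 1.44; limma adjusted p = 0.872; exact permutation p = 0.571). It was 1.09 without vehicle replicate 3 and 0.03 without maslinic acid replicate 3. The other Fbn2 probe set, with 8 distinct values, followed the first over the arrays (Pearson r = 0.83, Spearman rho = 0.78) and gave g = 0.53.

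Mfap4, a protein that binds both elastin and fibrillin, had deviations (1424010_at, level 6.61) of 12, -28, 10, -19 and -30 millionths in the vehicle group and -9, 12, 66, -35 and 18 millionths in the maslinic acid group. Maslinic acid replicate 3 was again highest, but maslinic acid replicate 4 was the lowest of all arrays. The difference was g = 0.64 (95% CI -0.54 to 1.78; limma adjusted p = 0.733; exact permutation p = 0.286). It was 0.30 without maslinic acid replicate 3 and 1.12 without maslinic acid replicate 4.

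Mfap5, the microfibril-associated glycoprotein MAGP-2, had a wider spread (1418454_at, level 8.06). The vehicle arrays deviated by 590, -1283, -5890, -1794 and 1194 millionths, and the maslinic acid arrays by 1535, 4628, 6195, -210 and -4963 millionths. The 3 highest arrays were all from the maslinic acid group, and maslinic acid replicate 5 was among the lowest, next to vehicle replicate 3. This gave g = 0.71 (95% CI -0.48 to 1.86; limma adjusted p = 0.702; exact permutation p = 0.238). It was 1.40 without maslinic acid replicate 5 and 0.44 without maslinic acid replicate 3. The other Mfap5 probe set tracked the first closely (r = 0.98, rho = 0.96) and gave g = 0.77 (95% CI -0.43 to 1.93).

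**Figure D1:**
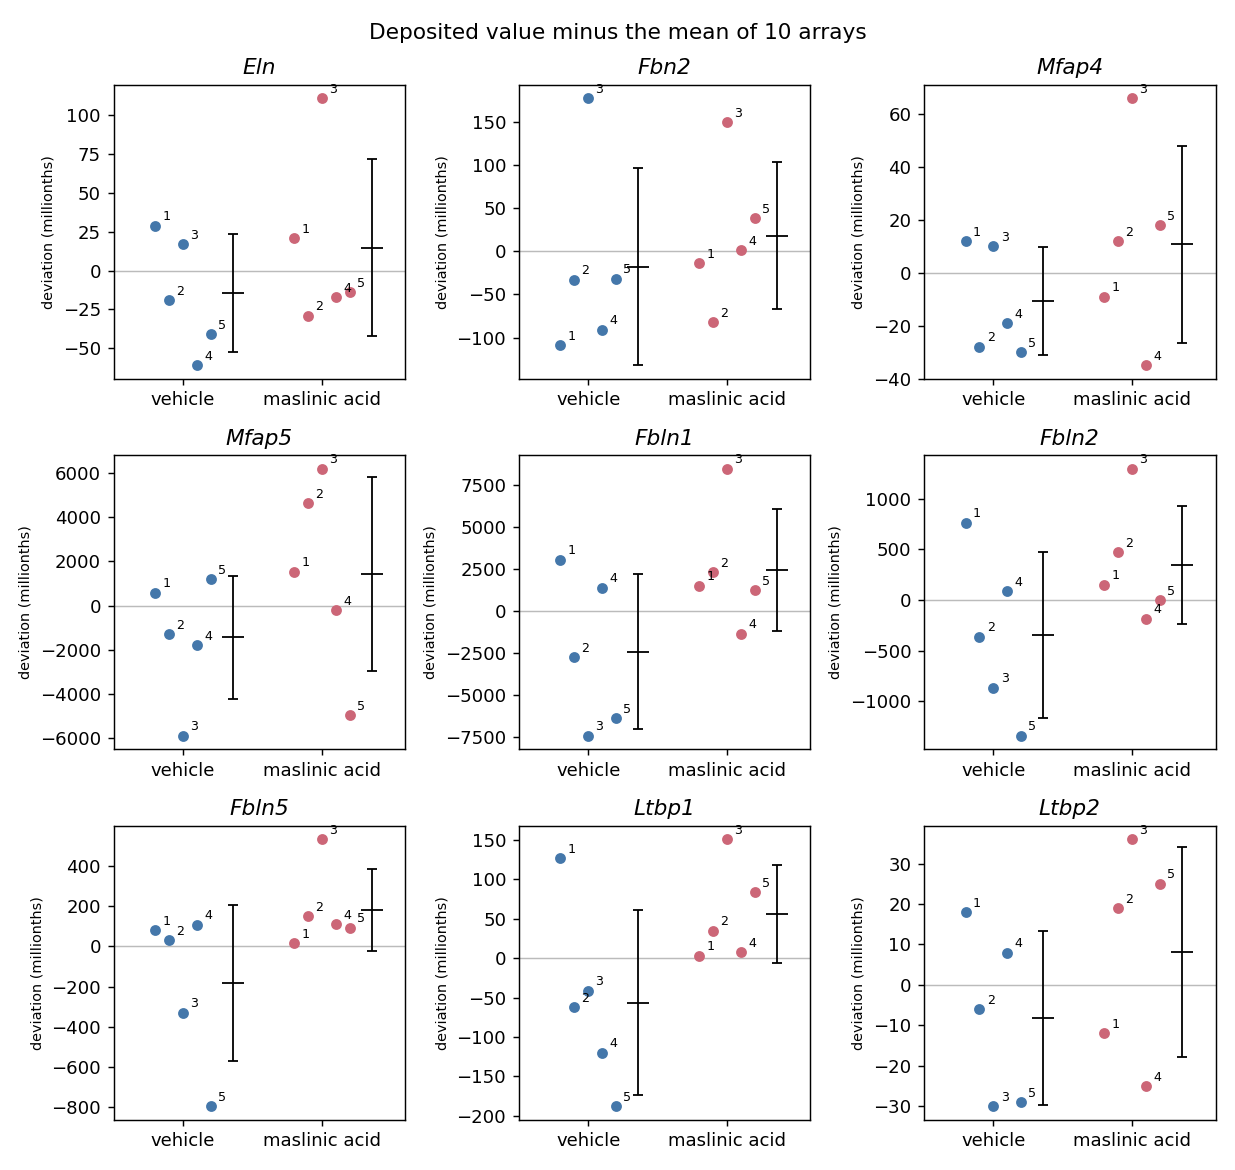
Deviation of each array from the gene's mean over 10 arrays, in millionths of a deposited unit, for the 9 elastic fibre genes; points are arrays labelled with their replicate number, and the bars beside them give the group mean and SD (n = 5). Maslinic acid replicate 3 was highest for 8 of the 9 genes, and the groups overlapped for each gene.

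The fibulins are secreted glycoproteins that bridge elastin, microfibrils and cell surfaces. Fbln1, found in the elastin core and around basement membranes, deviated in the vehicle group (1422540_at, level 7.78) by 3043, -2745, -7447, 1391 and -6395 millionths. In the maslinic acid group it deviated by 1498, 2310, 8476, -1363 and 1229 millionths. Vehicle replicates 2, 3 and 5 lay below every maslinic acid array, while vehicle replicates 1 and 4 lay among them. The group means were -2430 ± 4625 and 2430 ± 3649 millionths (SD, n = 5 each), with g = 1.05 (95% CI -0.20 to 2.26; limma adjusted p = 0.595; exact permutation p = 0.127). Without vehicle replicates 3 and 5, g was 0.47. The Fbln1 probe set with 10 distinct values that was not chosen followed it (r = 0.96, rho = 0.95) and gave g = 0.75, whereas the remaining one, with 5 distinct values, gave g = -1.07.

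Fbln2, which binds fibrillin and elastin, had deviations (1423407_a_at, level 7.07) of 761, -365, -866, 85 and -1341 millionths in vehicle mice and 151, 471, 1294, -187 and -1 millionths in maslinic acid mice. The same 3 vehicle arrays as for Fbln1 lay below the maslinic acid group. The difference was g = 0.88 (95% CI -0.34 to 2.05; limma adjusted p = 0.644; exact permutation p = 0.175). It was 0.28 without vehicle replicates 3 and 5 and 1.44 without vehicle replicate 1. The other Fbln2 probe set, with 8 distinct values, did not track it (r = 0.12, rho = -0.06), and its mean was lower with maslinic acid by 7.6 millionths (95% CI of g -2.20 to 0.24).

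Fbln5, which tethers elastin to cells and is needed for elastic fibre assembly, deviated (1416164_at, level 8.75) by 82, 30, -330, 108 and -795 millionths in vehicle mice. The maslinic acid arrays deviated by 17, 150, 533, 112 and 94 millionths. The vehicle mean was set by replicates 3 and 5, and the other 3 vehicle arrays lay in the range of the maslinic acid group. The difference was g = 1.06 (95% CI -0.20 to 2.26; limma adjusted p = 0.594; exact permutation p = 0.0873), and 0.56 without those vehicle arrays. After quantile normalization it was 0.16. A second Fbln5 probe set, with 5 distinct values, was unrelated to the first over the arrays (r = -0.002, rho = 0.17) and gave g = -0.47.

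LTBPs bind fibrillin, and LTBP-1 also carries latent TGF-beta into the matrix. Ltbp1 had the largest g of the 9 genes, with deviations (1448870_at, level 8.38) of 127, -62, -41, -120 and -188 millionths in vehicle mice and 3, 35, 151, 8 and 84 millionths in maslinic acid mice. All 5 maslinic acid arrays lay above 4 of the 5 vehicle arrays, and vehicle replicate 1 was the exception. The difference was g = 1.09 (95% CI -0.18 to 2.29; limma adjusted p = 0.587; exact permutation p = 0.0873), 2.22 without vehicle replicate 1 and -0.27 after quantile normalization. A dimmer Ltbp1 probe set with 8 distinct values gave g = 1.33 (95% CI 0.01 to 2.59; limma unadjusted p = 0.0432, adjusted p = 0.545), resting on a difference of 6.6 millionths, and the remaining one gave g = -0.37.

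Ltbp2, which binds fibrillin but not latent TGF-beta, had deviations (1418061_at, level 6.98) of 18, -6, -30, 8 and -29 millionths in vehicle mice and -12, 19, 36, -25 and 25 millionths in maslinic acid mice. Vehicle replicates 3 and 5 were the lowest arrays, and 3 maslinic acid arrays lay above every vehicle array. For Ltbp2 g was 0.62 (95% CI -0.55 to 1.76; limma adjusted p = 0.744; exact permutation p = 0.302). It was 0.08 without both of those vehicle arrays, 0.41 without either of them, 0.37 without maslinic acid replicate 3 and 1.04 without maslinic acid replicate 4.

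With g of at least 1 in 3 of the 9 genes (Ltbp1, Fbln5 and Fbln1), against 9.16% of all genes with a g of 1 or more, the set had several of its members near the upper end of the distribution without any passing the test. The count depended on single arrays. In that order, g was 0.86, 0.83 and 0.82 without maslinic acid replicate 3, and 0.72, 0.56 and 0.47 without vehicle replicates 3 and 5 (where Fbn2 was at 1.14). Without vehicle replicate 1 it was 2.22, 1.22 and 1.45. Members share the same mice and vary together, so such a count is not a count of independent genes. Of the 9 probe sets that were not chosen, 4 were higher, 4 lower and 1 equal with maslinic acid. The 4 lower ones held 5 to 8 distinct values and ranged over 6 to 27 millionths between arrays. Of the 4 higher ones, those of Fbn2 and Ltbp1 held 8 distinct values each and ranged over 28 and 20 millionths. Those of Fbln1 and Mfap5 held 10 and ranged over 24476 and 2862 millionths.

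The arrays at the extremes were the same for most members. Maslinic acid replicate 3 was the highest of all 10 arrays for 8 of the 9 genes, and for Fbn2 it was second. Vehicle replicates 3 and 5 were each the lowest array for 3 genes. Averaged over the 9 genes, each scaled to its own SD over 10 arrays, the deviation was 1.73 SDs in maslinic acid replicate 3 and -1.14 in vehicle replicate 5, against -0.48 to 0.43 in the other 8 arrays. Vehicle replicate 1, at 0.43, was the second highest array, and maslinic acid replicate 4, at -0.30, was within the vehicle range. Without maslinic acid replicate 3 all 9 genes still had a higher mean with maslinic acid, with a median g of 0.44.

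**Figure D2:**
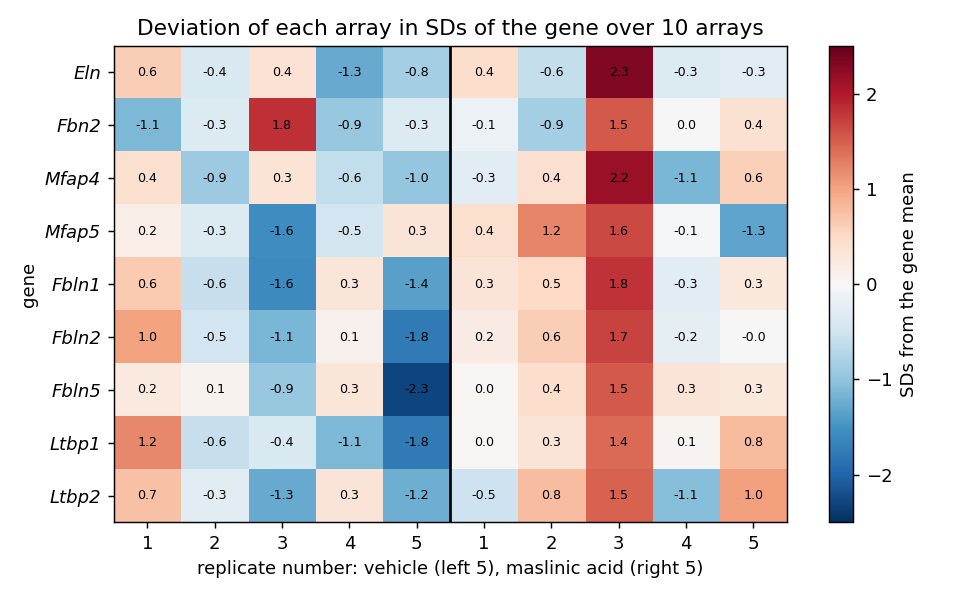
Deviation of each array (columns; vehicle replicates left of the line, maslinic acid replicates right) from the mean of each gene (rows), in SDs of that gene over 10 arrays. Maslinic acid replicate 3 is high throughout, vehicle replicate 5 is low for most genes, and vehicle replicate 3 is low for Mfap5, Fbln1, Fbln2, Fbln5 and Ltbp2 but high for Fbn2.

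Co-variation was measured by correlation over the 10 arrays for all 36 pairs of members. The coefficient was positive for 32 pairs, with a median Pearson r of 0.61, and 13 pairs passed a permutation test after Benjamini-Hochberg adjustment over the 36 pairs. By Spearman's rho 1 pair passed. Within groups, from deviations around each group's mean, 7 pairs passed. That permutation moved the deviations over all 10 arrays and took no account of the fitted group means. Its p-values therefore tend to be too low, and the count of 7 too high. Without vehicle replicates 3 and 5, 4 pairs passed, and without maslinic acid replicate 3 there was 1. The coefficients themselves moved in both directions. Within groups 31 of the 36 were positive (median r 0.53), without vehicle replicates 3 and 5 all 36 were (median 0.72), and without maslinic acid replicate 3 there were 27 (median 0.34). Each of the 36 was lower without maslinic acid replicate 3. These settings hold fewer arrays or remove the group means, and the arrays share their processing.

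Fbln1 and Fbln2 were the exception, and passed in each of these settings. Over 10 arrays Pearson's r was 0.96 and Spearman's rho 0.99, each with a permutation p of 1e-05, the smallest that 100000 permutations can give, and an adjusted p of 0.00036. The coefficient was 0.96 without the 2 arrays farthest from the median of Fbln1 (vehicle replicates 3 and 5), 0.96 within groups and 0.94 without maslinic acid replicate 3 (adjusted p = 0.00504). It was 0.94 among the 5 vehicle arrays alone and 0.98 among the 5 maslinic acid arrays alone.

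Fbln5 varied with both of them, though less closely by rank. Its r was 0.90 with Fbln2 (rho = 0.68; permutation p = 0.00044 and 0.0346; adjusted p = 0.00648 and 0.104) and 0.87 with Fbln1 (rho = 0.67; permutation p = 0.00147 and 0.0393; adjusted p = 0.0106 and 0.109). Without the 2 arrays farthest from the median of the partner gene (Fbln2 or Fbln1), r was 0.74 with Fbln2 and 0.84 with Fbln1. Ltbp2 followed Fbln1 (r = 0.87, rho = 0.79, permutation p = 0.00054 and 0.00836, adjusted p = 0.00648 and 0.0782), with r = 0.77 without the 2 arrays farthest from the median of Fbln1. Ltbp1 followed Fbln2 (r = 0.83, rho = 0.77, permutation p = 0.00325 and 0.0126, adjusted p = 0.0167 and 0.0782), with r = 0.57 without the 2 arrays farthest from the median of Fbln2.

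Eln had its highest Pearson r among the members with Mfap4 (r = 0.80, rho = 0.59; permutation p = 0.00998 and 0.0776; adjusted p = 0.0359 and 0.162). That r was 0.44 without the 2 arrays farthest from the median of Eln and 0.47 without maslinic acid replicate 3. It was 0.77 within groups (permutation adjusted p = 0.0457) and 0.84 among the 5 vehicle arrays alone. The p within groups tends to be too low, because its permutation ignored the fitted group means. By rank Eln was closer to Ltbp1 (r = 0.73, rho = 0.75; permutation p = 0.0135 and 0.0165; adjusted p = 0.0374 and 0.0818), with r = 0.54 without the 2 farthest arrays and 0.63 without maslinic acid replicate 3. With Fbln5, which acts in elastin assembly, Eln had r = 0.49 and rho = 0.10 (permutation p = 0.158 and 0.785; adjusted p = 0.237 and 0.807). The relations of Fbn2 depended on the arrays. Over all arrays its r was 0.60 with Eln, 0.51 with Mfap4 and 0.22 with Ltbp1, and lay between -0.18 and -0.06 with Fbln1, Fbln2, Mfap5 and Ltbp2. Those 4 coefficients lay between -0.72 and -0.52 without maslinic acid replicate 3 and between 0.27 and 0.50 without vehicle replicates 3 and 5. They lay between 0.14 and 0.71 among the maslinic acid arrays alone, and between -0.84 and -0.59 among the vehicle arrays alone. No pair with Fbn2 passed after adjustment over all arrays.

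**Figure D3:**
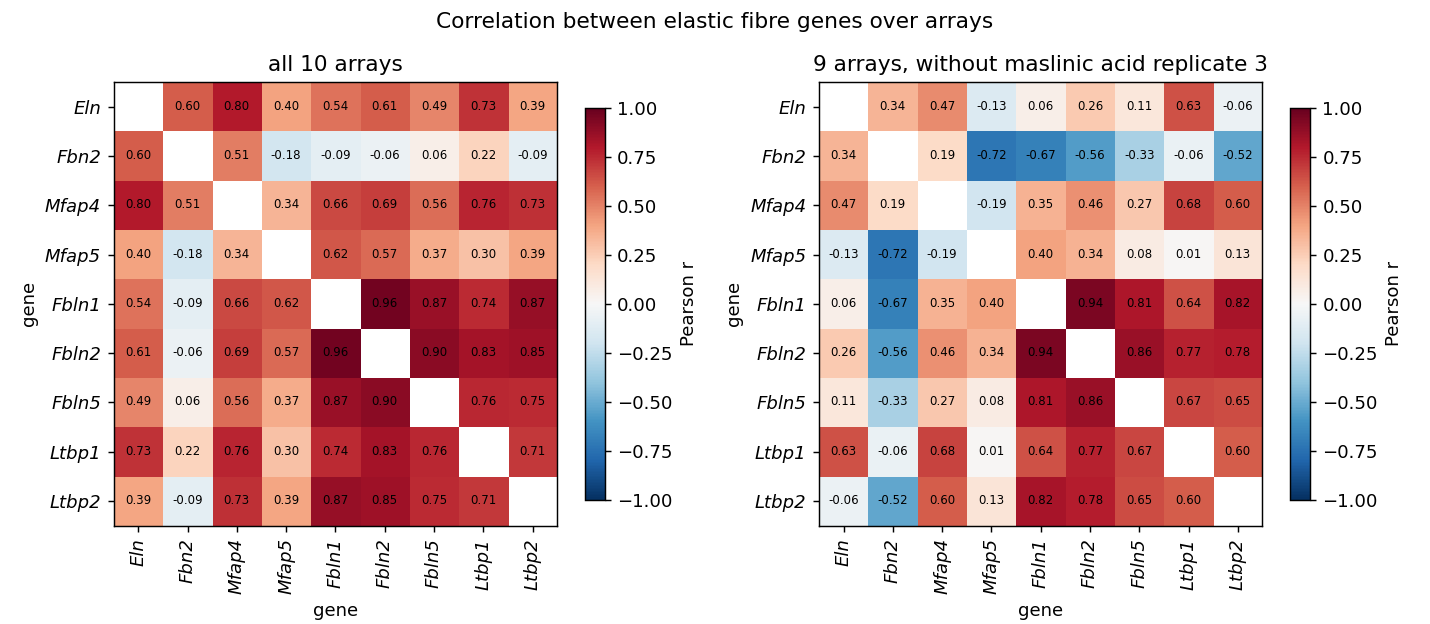
Pearson r between each pair of the 9 genes (rows and columns) over all 10 arrays (left) and over 9 arrays without maslinic acid replicate 3 (right). The block of Fbln1, Fbln2, Fbln5, Ltbp1 and Ltbp2 keeps coefficients of at least 0.60 in both, and each of the 36 coefficients is lower in the right panel.

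Markers of mesenchymal cells moved with several of the members across arrays. Among 108 relations of the 9 genes with 12 marker scores (the mean of a list's genes, each scaled to its SD), 16 passed by Pearson's r after adjustment over the 108. These were with the scores of fibroblasts, smooth muscle and pericytes, tendon or endothelium. None of the 16 involved Eln, Fbn2 or Mfap5. By Spearman's rho only Fbln5 with smooth muscle and pericytes and Mfap4 with tendon passed after adjustment. By Pearson's r 0 of 108 passed without maslinic acid replicate 3, and without vehicle replicates 3 and 5 there were 3. Several coefficients nevertheless stayed about as large. Without maslinic acid replicate 3, r was 0.90 for Fbln5 with smooth muscle and pericytes, 0.90 for Ltbp2 with tendon (0.91 over all arrays), 0.85 for Mfap4 with tendon and 0.89 for Fbln5 with endothelium (0.88 over all arrays, and 0.30 without vehicle replicates 3 and 5). Examples are Fbln5 with smooth muscle and pericytes (r = 0.91, rho = 0.93; permutation adjusted p = 0.0359 and 0.0216; r = 0.63 without the 2 arrays farthest from the Fbln5 median) and Mfap4 with tendon (r = 0.93, rho = 0.95; permutation adjusted p = 0.0281 and 0.013; r = 0.82 without its 2 farthest arrays). Fbln1 had r = 0.88 with the fibroblast score and rho = 0.59 (permutation adjusted p = 0.0359 and 0.312; r = 0.72 without its 2 farthest arrays).

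Fibroblast markers were higher with maslinic acid in 8 of 8, with scores of -0.94 to 0.23 in vehicle and 0.003 to 1.28 in maslinic acid mice. After quantile normalization 6 of 8 were higher and none lower, and with arrays centred on their medians 7 of 8 were higher. Without vehicle replicates 3 and 5, 6 of these markers were higher and 2 lower. Summed over the list their levels ran from 79.10 to 79.14 and from 79.12 to 79.17 deposited units. The smooth muscle and pericyte score ran from -0.80 to 0.09 and from -0.28 to 0.95, with summed levels of 64.084 to 64.087 and 64.085 to 64.088. The tendon score ran from -0.93 to 0.44 and from -0.72 to 1.44, with summed levels of 42.20 to 42.28 and 42.25 to 42.30. No marker of these lists was at 0. Maslinic acid replicate 3 had the highest score in each of these 3 lists. The part of these cell types in the differences between the groups was not tested. The skeletal muscle score had r between -0.39 and -0.03 with the 9 genes over all arrays. Among the 5 maslinic acid arrays alone r lay between -0.93 and -0.38, and among the 5 vehicle arrays between -0.29 and 0.23. All 8 muscle markers had higher means with maslinic acid (4 of 8 after quantile normalization, with none lower), and their part in the members' differences was not tested beyond the fit with the muscle score as a covariate, where the median g of the 9 genes was 0.97. In that fit g was scaled by the SD left after the covariate, so it is not on the scale of the other g values.

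The genes most like the members were read off by a fixed rule from 6743 genes with 10 distinct values. Over 10 arrays the highest correlations with the mean deviation of the 9 members were those of Ahnak, a giant scaffold protein (r = 0.97), the carnitine transporter Slc22a5 (0.97), the dynamin Dnm1 (0.97), Lhfpl2 (0.96) and Csad, an enzyme of taurine synthesis (0.96). The lowest were those of the ribokinase Rbks (-0.91), Slfn2 (-0.89) and C130026I21Rik (-0.87). Without the 2 arrays farthest from the median, Ahnak remained at 0.92, and Rbks was at -0.49. For Eln alone the closest genes were the peptidase Enpep (0.95), the ubiquitin-conjugating enzyme Ube2d2a (0.93) and Cd248, endosialin of pericytes and stromal cells (0.89). These genes were picked as the extremes of many, and the coefficients are descriptions.

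Genes that assemble, crosslink, degrade or sense elastic fibres were examined next, from lists chosen by function. Earlier results of these data were known when the lists were made, so their counts beside those of all genes are descriptions. None of the 41 measured genes passed limma's test after adjustment over all probe sets. At an unadjusted p under 0.05 there were 4 of 41, a share near the 8.83% of all genes. All 4 measured crosslinking enzymes, the lysyl oxidases, had higher means with maslinic acid (median g = 1.05, against 0.0 over all genes). They also did after quantile normalization (median 0.63), with arrays centred on their medians (0.97) and without vehicle replicates 3 and 5 (0.58). Lox, the main enzyme that crosslinks elastin and collagen, had mean deviations of -3750 millionths in vehicle and 3750 millionths in maslinic acid mice (g = 1.54, 95% CI 0.16 to 2.85; limma unadjusted p = 0.0227, adjusted p = 0.496; exact permutation p = 0.0159). The groups overlapped. Loxl4, a lysyl oxidase-like enzyme, had g = 1.20 (95% CI -0.09 to 2.43; limma adjusted p = 0.566).

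Of 15 measured assembly partners, 12 were higher, 2 lower and 1 equal (median g = 0.40), but after quantile normalization 7 were higher and 8 lower, and without vehicle replicates 3 and 5 the counts were 8 and 7. Adamtsl4, a secreted protein that promotes fibrillin microfibril formation, had g = 1.49 (95% CI 0.13 to 2.79; limma unadjusted p = 0.0258, adjusted p = 0.505). Mfap2, the microfibril-associated glycoprotein MAGP-1, had g = 1.11 (95% CI -0.16 to 2.32; limma adjusted p = 0.583), with 0.08 after quantile normalization.

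Elastin-degrading proteases stood on both sides, with 5 of 10 higher and 5 lower (median g = 0.30). After quantile normalization 4 were higher and 4 lower (median -0.35). The median was 0.04 with arrays centred on their medians and 0.26 without vehicle replicates 3 and 5. Mmp2, gelatinase A of stromal cells, had g = 1.40 (95% CI 0.06 to 2.67; limma unadjusted p = 0.0339, adjusted p = 0.521). Prtn3, the neutrophil protease proteinase 3, lay on the other side with g = -1.66 (95% CI -3.00 to -0.25; limma unadjusted p = 0.0161, adjusted p = 0.488). Neutrophil markers were lower in 4 of 4 measured, and their score ran from -0.04 to 1.04 in vehicle and from -0.84 to -0.34 in maslinic acid mice, with summed levels of 44.9158 to 44.9165 and 44.9151 to 44.9159. Of these 4, 2 were lower and none higher after quantile normalization. Their part in the Prtn3 difference was not tested.

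Elastin receptor genes were higher in 5 of 6 (median g = 0.69), with the lysosomal enzymes Glb1 at 0.87 (95% CI -0.34 to 2.05; limma adjusted p = 0.644) and Ctsa at 0.85 (95% CI -0.37 to 2.01; limma adjusted p = 0.654), but after quantile normalization 2 were higher and 4 lower, and without vehicle replicates 3 and 5 there were 3 of each. Glb1 was at 0.13 and Ctsa at 0.32 after quantile normalization, and at 0.29 and 0.50 without those vehicle arrays. The TGF-beta ligands and activators that work with LTBPs were higher in 5 of 6 (median g = 0.50). After quantile normalization (median 0.36) and without vehicle replicates 3 and 5 (median 0.17), 4 of 6 were higher. Tgfb2 had g = 1.13 (95% CI -0.14 to 2.35; limma adjusted p = 0.58) and Tgfb3 g = 0.93 (95% CI -0.30 to 2.12; limma adjusted p = 0.629).

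**Figure D4:**
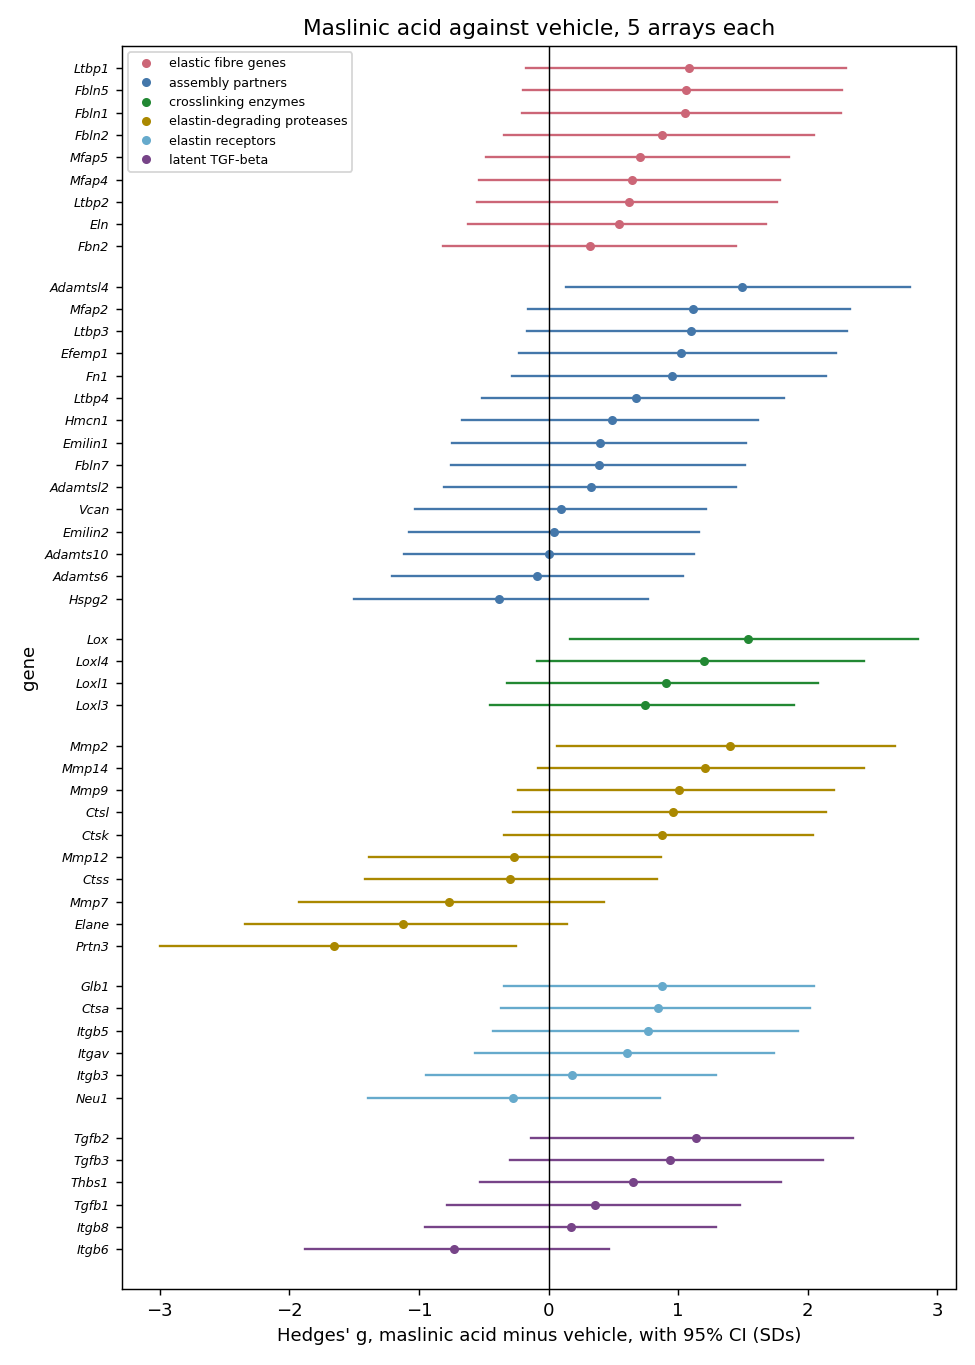
Hedges' g (points) with its 95% confidence interval (lines) for maslinic acid minus vehicle, 5 arrays each, for the 9 elastic fibre genes and 41 genes of related lists. All 9 elastic fibre genes and 4 lysyl oxidases lie right of 0 (with arrays centred on their medians Eln, Mfap4 and Ltbp2 turn, and after quantile normalization Ltbp1), and only the intervals of Lox, Adamtsl4, Mmp2 and Prtn3 leave out 0, 4 of the 41 related genes against 8.83% of all genes at an unadjusted p under 0.05.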

How the data were processed

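The scores analysed are the authors' deposited values, 1 column per array; the tool named is R 3.2.1, per the submitters' processing notes, and how the scans were corrected, normalized and summarised is not given in the sources used here. Values have 6 decimals. Gene names come from the platform's annotation: 34202 probe sets name 1 gene, 931 several (not used) and 4860 none; 34028 identifiers of the first were found in the RefSeq table. No 2 arrays held identical values. All probe sets entered limma 3.58.1 under R 4.3.3 (lmFit, then eBayes), maslinic acid against vehicle, without covariates or filter, two-sided, Benjamini-Hochberg threshold 0.05. The unmoderated SD gives Hedges' g. Exact tests used all 252 assignments of arrays and cannot go below 0.00794. Correlations used 100000 permutations, two-sided. Tables were made with Python 3.11.15, pandas 2.3.3, numpy 2.4.6, scipy 1.17.1 and matplotlib 3.10.9.

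The members and lists were chosen with earlier results of these data known. Members were named throughout; in other lists the 2 genes of lowest p were named, with the extremes of correlation (5 highest and 3 lowest for the members, 3 for Eln). Efemp2, Adamts17 and Loxl2 have no probe set of their own. The fit was tested on simulated data for the 39993 probe sets: of 50 shifted by each size it found 6% (2 SD), 68% (4 SD), 96% (6 SD) or 100% (8 SD), and made 3 false calls. Only probe sets with 10 distinct values were shifted, all sizes at once, and the noise was normal and independent between probe sets. Real probe sets vary together, so these shares may not hold for the members.

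The labels do not say that the same replicate numbers in both groups pair mice. Deviations of same-numbered arrays correlated between -0.39 and 0.35, and those of differently numbered arrays between -0.51 and 0.65. So few arrays cannot decide whether the numbers mark a block. Alternatives were the replicate block, other normalizations, filters, weights, covariate, probe set choices and arrays left out.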

Additional observations from a re-analysis of the deposited data

Results flagged for a closer look

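Among 18 groups of 5 arrays (9 genes in both treatment groups), Dixon's test at the 95% level marked 2 arrays as far from the others of their group; chance marks about 1 in 20 groups. For Fbn2, vehicle replicate 3 was the highest of its group, with a gap to the next array of 0.731 of the group's range. For Fbln5, maslinic acid replicate 3 was the highest of its group, with a gap of 0.742 of the range.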

How the results depend on the processing

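No elastic fibre gene passed limma's adjusted threshold under any alternative run. Over all probe sets 0 passed, except 8 after quantile normalization and 1 without maslinic acid replicate 1 (0 to 1 over single arrays left out); these were not members. The direction turned for Eln (-0.05), Mfap4 (-0.13) and Ltbp2 (-0.21) with arrays centred on their medians and for Ltbp1 (-0.27) after quantile normalization. Array medians span 272 millionths, more than the whole range of Eln, Mfap4 and Ltbp2, so centring adds a shift larger than their own spread. These scalings moved the median g of all genes from 0.0 to -0.39 and -0.28, and the share of genes with a higher mean from 47.9% to 14.9% and 29.3%. The number of correlated pairs was 13, 7 within groups, 4 without vehicle replicates 3 and 5, and 1 without maslinic acid replicate 3, the last chosen after seeing the data. The count within groups tends to be too high, since its permutation ignored the fitted group means. With the replicate block the count of members past the threshold was 0 and their median g 0.68, scaled by the SD left after the block. The labels do not say that replicate numbers pair the mice. With 5 arrays a group, intervals of g are wide.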
